A study of Mus musculus with 6 samples.

Results

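The 7 hormone genes of the pancreatic islet that are described here are Ins2, Iapp, Gcg, Sst, Ppy, Pyy and Ghrl. They were taken by name: every probe set whose annotated gene symbol is 1 of the 7 was included. This gave 10 probe sets among the 45101 of the table, which name 18193 genes in all, 4 of them for Iapp and 1 for each other gene. The samples were islets of OF1 male mice, 10 weeks old, from animals given bisphenol A (BPA), an oestrogen-like compound used in making plastics, and from controls given the corn oil in which it was dissolved. There were 3 samples in each group, with 1 Affymetrix 3′ expression array per sample. The sources disagree on the exposure: the series' design describes injections under the skin of 50 µg/kg, adding up to 100 µg/kg/day, over 4 days, with islets taken 16 hours after the last one. The treatment protocol has 2 days at that daily dose, whereas the source labels speak of 1 nM during 48 hours. How many animals went into a sample is not stated in these sources, so the p-values measure the spread between these samples only. In whole islets, fewer cells of a type and less RNA per cell cannot be told apart.

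An islet is a small organ of endocrine cells in which each cell type is named for its main hormone. Beta cells release insulin and, from the same granules, islet amyloid polypeptide (amylin, the product of Iapp); alpha cells release glucagon, which raises blood glucose, and delta cells release somatostatin, which restrains both neighbours. Pancreatic polypeptide marks the PP cells, which are most frequent in the part of the pancreas that forms the head, peptide YY (Pyy) is a close relative of it made in several islet cell types of the mouse, and ghrelin comes from epsilon cells, which are rare in adult islets. All 7 are made as longer precursors that are cut in the secretory granule.

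Ppy and Pyy, whose differences were the largest of the 7 genes, are next to each other on chromosome 11 with no other protein-coding gene between them in RefSeq's annotation of GRCm38.p6. Gcg is on chromosome 2, Iapp and Ghrl on chromosome 6, Ins2 on chromosome 7 between Igf2 and Th, and Sst on chromosome 16. The promoters of the 3 genes with the largest differences among the tested ones are shown, from 250 bases before the annotated start to 50 bases from it, from RefSeq's table for GRCm38.p6, which matched 6 of the 7 genes. Capitals mark a TATA box (TATAAA, or ATATAA, which shares its last 5 letters with the first 5 of the other), the cyclic AMP response element (TGACGTCA) or a single arm of the oestrogen response element (GGTCA, or TGACC where it runs on the other strand). Each line gives the sequence 5′ to 3′ on the strand of the gene, the minus strand for all 3.
Ppy, chr11:102101270-102101569: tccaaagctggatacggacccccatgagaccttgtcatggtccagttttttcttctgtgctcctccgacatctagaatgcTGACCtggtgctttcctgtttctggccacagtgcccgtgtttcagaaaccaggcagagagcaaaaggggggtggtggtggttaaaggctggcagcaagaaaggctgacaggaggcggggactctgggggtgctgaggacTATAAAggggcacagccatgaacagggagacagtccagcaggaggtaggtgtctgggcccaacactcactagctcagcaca
Pyy, chr11:102107783-102108082: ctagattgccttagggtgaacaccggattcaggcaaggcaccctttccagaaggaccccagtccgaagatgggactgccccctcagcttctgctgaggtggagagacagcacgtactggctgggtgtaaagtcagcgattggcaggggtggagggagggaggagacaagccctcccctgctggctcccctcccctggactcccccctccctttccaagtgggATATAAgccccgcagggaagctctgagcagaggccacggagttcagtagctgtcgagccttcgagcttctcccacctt
Sst, chr16:23890795-23891094: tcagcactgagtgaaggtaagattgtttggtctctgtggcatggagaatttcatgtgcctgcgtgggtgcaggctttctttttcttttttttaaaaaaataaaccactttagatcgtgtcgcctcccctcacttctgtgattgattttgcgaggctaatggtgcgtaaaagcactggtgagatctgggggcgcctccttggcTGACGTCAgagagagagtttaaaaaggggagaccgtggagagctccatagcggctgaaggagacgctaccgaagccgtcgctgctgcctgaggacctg

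Searched on both strands, TATAAA was found in the promoters of 2 of the hormone genes, Ppy and Gcg, and in 13.6% of the 32851 promoters of the table. In Ppy it began 31 bases before the start. ATATAA was present in Pyy, Gcg, Iapp and Ghrl and in 9.82% of all promoters; in Pyy it began 28 bases before the start shown. The cyclic AMP response element was found in Sst and in none of the other hormone promoters searched, 48 bases before the start, and in 1.79% of all promoters. A single arm of the oestrogen response element was present in Ppy and in Ghrl, as in 40.5% of all promoters, and the full element (GGTCANNNTGACC) in none of the hormone promoters searched and in 0.0700% of all. The homeodomain core TAAT, the letters read by factors such as Pdx1, was found in Sst, Gcg and Iapp and in 58.0% of all promoters. A match describes these letters in this window and not a bound site.

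Values are log2 signals as deposited, and a difference of 1 is a doubling on the deposited scale. Median signals of the 6 arrays lay between 6.55 and 6.65. Each replicate 3 array was closest to the other and not to its own group. BPA replicate 3 correlated with control replicate 3 at 0.993 over all probe sets. Replicates 1 and 2 were as close to each other within each group, at 0.993 for BPA and 0.993 for control. BPA replicate 3 correlated at 0.982 and 0.983 with the other BPA arrays, and at 0.986 and 0.988 with control replicates 1 and 2. Results are therefore also given without the replicate 3 pair where leaving it out moves a value. Beta, alpha and delta cell markers were read to check the label of the tissue: the glucose transporter gene Slc2a2 had 13.87 ± 0.12 in BPA islets and 13.91 ± 0.04 in control islets, the delta cell factor gene Hhex 9.72 ± 0.17 and 9.99 ± 0.24, and the alpha cell factor gene Irx2 7.73 ± 0.22 and 7.83 ± 0.17 (SD, n = 3 per group). Acinar cell genes, which mark exocrine tissue, were also bright: 23 of 28 listed genes passed the signal filter, and their summed signal, as log2, ranged from 17.48 to 18.75 in BPA samples and from 16.58 to 18.54 in controls.

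In the comparison of BPA with control, 9 of the 10 hormone probe sets, covering 6 genes, were bright enough to be tested, and none of the 9 passed limma's moderated test at an adjusted p under 0.05, as for 0% of all 22518 tested probe sets. The smallest adjusted p among the 9 was 0.734 (Pyy), and 1 of the 9 had an unadjusted p under 0.05, against 6.47% of all tested. Signals were higher on average after BPA for 5 of the 9 and lower for 4, where 52.6% of all tested probe sets were higher. Their median difference was 0.0028 (log2), beside 0.011 for all tested probe sets, and their median absolute difference was 0.11, beside 0.12. In 1 of the 9 the groups did not overlap, where 12.2% of all tested probe sets had groups without overlap. The count without overlap, 11.1% of the 9, is close to the share of the whole table. Of the 4 lower probe sets 3 belong to Iapp, so the tally differs by gene: with each gene read by its brightest probe set, 5 of the 6 tested hormone genes were higher and 1, Gcg, was lower, with a median of 0.12 (log2).

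**Figure D1:**
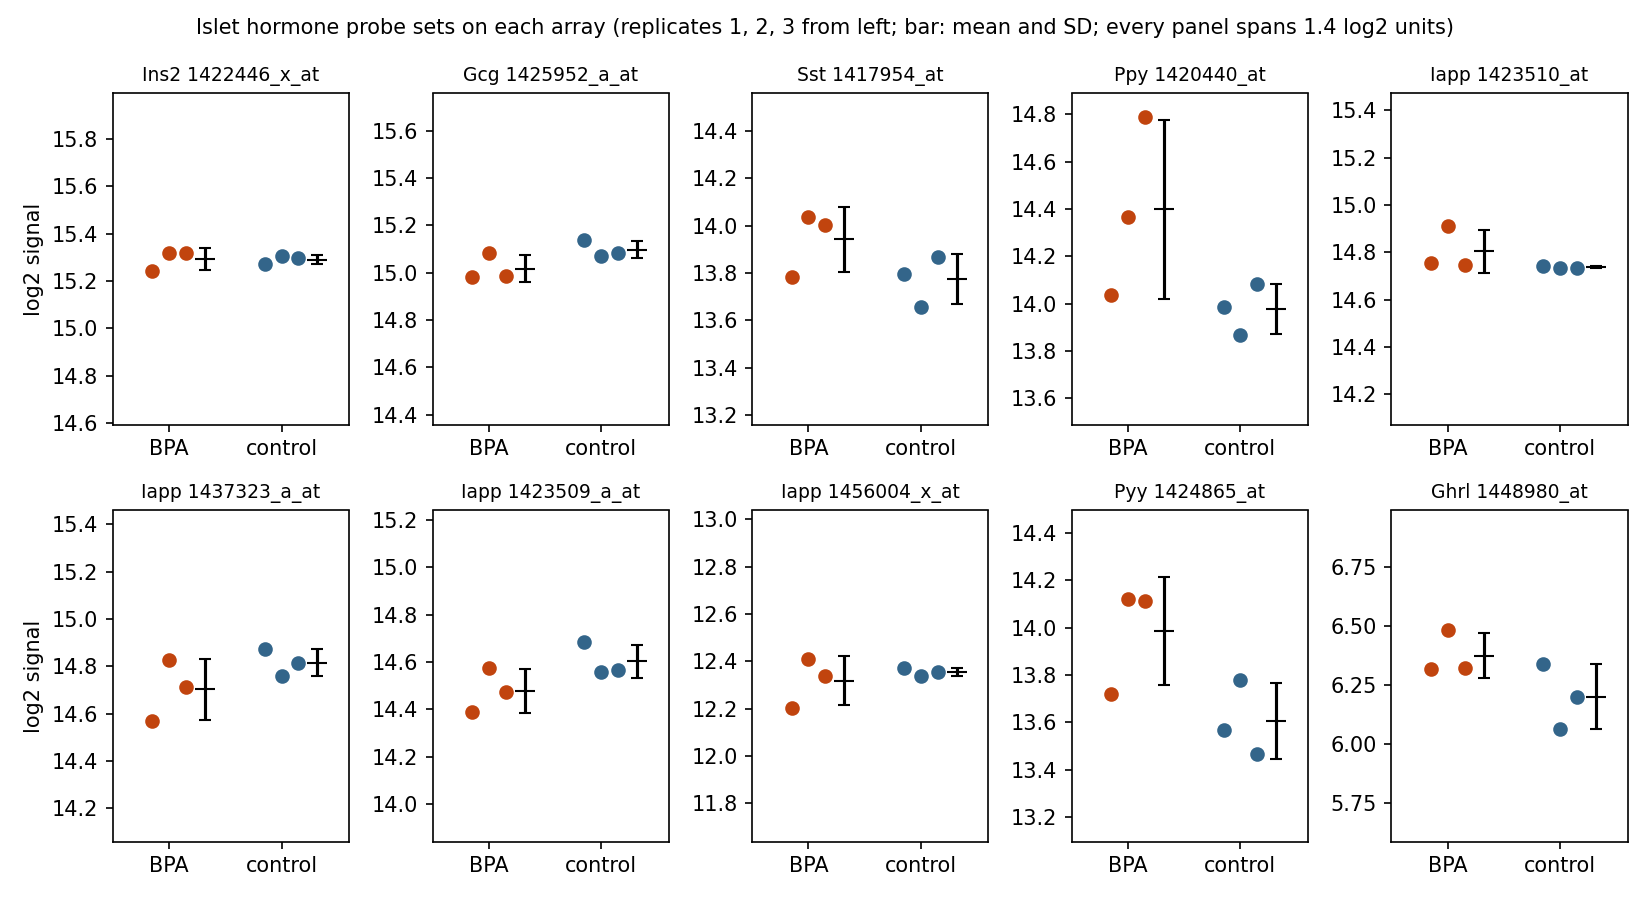
Log2 signal (vertical axis) of the 10 hormone probe sets in BPA and control islets; points are replicates 1 to 3 from left, bars the mean and SD, and every panel covers the same height in log2 units. The widest spread is that of Ppy in BPA islets, at 14.04, 14.37 and 14.79, while Ins2 stays between 15.24 and 15.32 on all arrays.

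Ins2 encodes 1 of the pair of mouse insulins, and its only probe set, 1422446_x_at, was the brightest probe set of every array. It read 15.24, 15.32 and 15.32 in BPA replicates 1 to 3, against 15.27, 15.31 and 15.30 in control replicates 1 to 3. The controls lay inside the range of the BPA samples, with BPA replicate 1 the lowest of all. The means were 15.29 ± 0.05 in BPA islets and 15.29 ± 0.02 in control islets (SD, n = 3 per group), a difference of 0.0028 ± 0.052 (SE; limma adjusted p = 0.995). The 95% interval of the ratio of BPA to control ran from 0.919 to 1.09. The suffix _x_at marks probes that can also bind related transcripts, so the signal cannot be assigned to Ins2 alone. Ins1, the other insulin gene, was not analysed here, because no probe set was named for it alone.

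How much such a bright probe set can still register was described from the whole table. Over the probe sets with a mean from 8 to 9, the median SD over the 6 arrays was 0.21, and it was 0.12 from 13 to 14, 0.092 from 14 to 14.5 and 0.068 for the 27 probe sets above 14.5, of which 5 belong to hormones. Ins2 had 0.031, the lowest of the 10 hormone probe sets. Probe sets of acinar cell genes with means above 14 still differed between arrays. The brightest of the elastase gene Cela3b read 15.09, 14.71 and 14.26 in BPA samples, against 14.92, 15.05 and 13.58 in controls, and control replicate 3 alone was below 14. The brightest probe set of the trypsinogen gene Prss2 covered 1.55, also with control replicate 3 as the lowest array. Among 7 acinar genes with 2 or more tested probe sets, the brightest probe set had a smaller range over the arrays than the dimmest in 6. The exception was the phospholipase gene Pla2g1b, at 4.08 on the brighter and 3.25 on the dimmer of its probe sets. For Cela3b the range was 1.51 on the probe set with a mean of 14.60 and 3.65 on the one with a mean of 13.10. For Prss2 it was 1.55 at a mean of 14.43 and 3.17 at a mean of 13.43. The interval given for Ins2 covers the spread between arrays; whether its signal was compressed at the top of the scale was not tested, since no dimmer probe set of Ins2 was available.

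**Figure D2:**
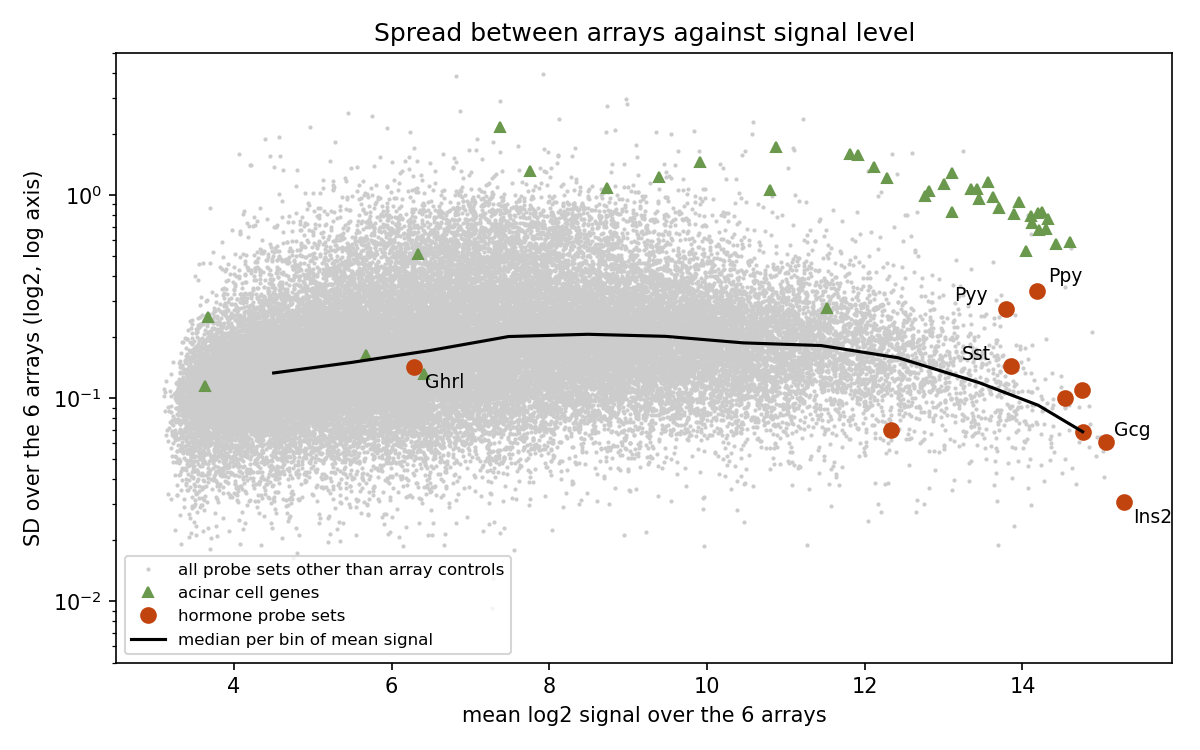
SD over the 6 arrays (vertical, log axis, in log2 units) against the mean log2 signal (horizontal) for all probe sets other than array controls (grey), acinar cell genes (triangles) and hormone probe sets (circles, unlabelled ones Iapp); the line is the median per bin of signal. The line drops from 0.21 in the bin from 8 to 9 to 0.068 above 14.5, and Ppy and Pyy lie above it while Ins2 has an SD of 0.031.

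Iapp encodes amylin, which is stored and released with insulin, and its 4 probe sets did not give 1 direction. The brightest, 1423510_at, read 14.76, 14.91 and 14.75 in BPA samples, against 14.74, 14.74 and 14.74 in control samples. All 3 BPA samples were above all 3 controls, but by a margin of a few thousandths for BPA replicate 3, and the difference of 0.066 ± 0.066 (log2, SE) had an adjusted p of 0.889 in limma. Without BPA replicate 2, the highest array, it was 0.013. The probe set 1437323_a_at read 14.57, 14.83 and 14.71 in BPA samples, against 14.87, 14.76 and 14.81 in controls. Here BPA replicates 1 and 3 were below every control and BPA replicate 2 lay among them, giving -0.11 ± 0.08 (SE; limma adjusted p = 0.855). That value was -0.045 without BPA replicate 1 and -0.18 without BPA replicate 2.

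The probe set 1423509_a_at read 14.39, 14.57 and 14.47 in BPA samples, against 14.68, 14.56 and 14.57 in controls. Again BPA replicates 1 and 3 were the lowest, and the difference was -0.13 ± 0.07 (log2, SE; limma adjusted p = 0.832), or -0.080 without BPA replicate 1 and -0.085 without control replicate 1. The dimmest, 1456004_x_at, read 12.20, 12.41 and 12.34 in BPA samples, against 12.37, 12.34 and 12.36 in controls, a difference of -0.037 ± 0.087 (SE; limma adjusted p = 0.952). BPA replicate 1 was the lowest array and BPA replicate 2 the highest. Although dimmer, it had a range over the arrays of 0.21, inside the 0.17 to 0.31 of the other 3. Within each array, the signal of 1423510_at minus that of 1423509_a_at was 0.37, 0.34 and 0.27 in BPA samples, against 0.059, 0.18 and 0.17 in controls. The 2 groups of within-array differences did not overlap, with means of 0.33 ± 0.05 and 0.14 ± 0.07 (SD, n = 3 per group; two-sided exact permutation p = 0.1, the smallest that 3 against 3 arrays allow). The same held for 1423510_at against 1437323_a_at and against 1456004_x_at, whose group differences were 0.18 and 0.10 (exact permutation p = 0.1 each, n = 3 per group). These pairs were looked at after the values had been seen, and they share 1423510_at.

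Gcg encodes proglucagon, the precursor of glucagon in alpha cells, and its probe set 1425952_a_at ranked between 2 and 8 by signal on the 6 arrays. It read 14.98, 15.08 and 14.99 in BPA samples, against 15.14, 15.07 and 15.08 in controls. BPA replicates 1 and 3 were below all controls and BPA replicate 2 lay within their range. The means were 15.02 ± 0.06 and 15.10 ± 0.04 (SD, n = 3 per group), so the difference was -0.080 ± 0.058 (log2, SE; limma adjusted p = 0.854), and the 95% interval of the ratio of BPA to control was 0.860 to 1.04. As for Ins2, it sits where the spread of all probe sets is narrow. Of the 4 tested alpha cell markers 3 were lower (median -0.065), among them the transthyretin gene Ttr at -0.071 ± 0.077, and the amino acid transporter gene Slc38a5 was higher at 0.47 ± 0.51 (log2, SE; limma adjusted p = 0.896 each). These are the brightest probe sets. The other 3 of Ttr differed by -0.10 ± 0.09, 0.027 ± 0.082 and 0.55 ± 0.26 (SE; limma adjusted p = 0.872, 0.966 and 0.795), so the direction of Ttr was not shared among its probe sets. Slc38a5 had the order of the mean of the acinar genes in each group. BPA replicate 1 and control replicate 2 were the highest, and both replicate 3 arrays the lowest. The brightest probe set of Ttr had the reverse order in each group, and Irx1 and Irx2 had neither order in both groups. The part of acinar RNA in the alpha cell markers was not tested.

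Sst encodes somatostatin, the hormone of delta cells, and is farther from the top, with 1.28 to 1.65 log2 units between it and the brightest probe set of the array. Its probe set 1417954_at read 13.78, 14.04 and 14.00 in BPA samples, against 13.80, 13.66 and 13.87 in controls. BPA replicates 2 and 3 were above all controls, and BPA replicate 1 was below 2 of the 3. The difference was 0.17 ± 0.10 (log2, SE; limma adjusted p = 0.832), with a ratio of BPA to control of 1.12 and a 95% interval of 0.957 to 1.32. None of the 3 tested delta cell markers passed the test, and their means ran both ways: Hhex differed by -0.27 ± 0.16, the retinol-binding protein gene Rbp4 by 0.25 ± 0.24, and the calcium-sensing receptor gene Casr by -0.10 ± 0.15 (log2, SE; limma adjusted p = 0.832, 0.888 and 0.925). Rbp4 and Hhex both fell from replicate 1 to replicate 3 in each group, and Casr did not. In BPA samples this fall is the order of the mean of the acinar genes. In controls that mean was highest in replicate 2, and lowest in replicate 3 as for Rbp4 and Hhex. The part of acinar RNA in the delta cell markers was not tested.

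Ppy, which encodes pancreatic polypeptide, had the largest difference of the 7 genes. Its probe set 1420440_at read 14.04, 14.37 and 14.79 in BPA samples, against 13.98, 13.87 and 14.08 in controls. The 2 highest values were BPA replicates 3 and 2, while BPA replicate 1 was below control replicate 3, so the groups overlapped. The means were 14.40 ± 0.38 and 13.98 ± 0.11 (SD, n = 3 per group), a ratio of BPA to control of 1.34 with a 95% interval of 0.990 to 1.81, and the difference of 0.42 ± 0.18 (log2, SE) had an unadjusted p of 0.0561 and an adjusted p of 0.786 in limma. Without BPA replicate 3 the difference was 0.23, without BPA replicate 1 it was 0.60, and with both replicate 3 arrays left out it was 0.28. The SD in BPA samples was the largest in either group of any hormone gene. In each group Ppy had the reverse order of the acinar genes, whose mean relative to the 6 arrays was 1.20, -0.081 and -0.64 in BPA replicates 1 to 3, against 0.34, 0.77 and -1.59 in control replicates 1 to 3. The acinar list itself had 22 of 23 tested genes higher on average after BPA and did not separate the groups (difference of means 0.32, exact permutation p = 0.7, n = 3 per group). Its part in the Ppy values was not tested.

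Pyy encodes peptide YY, and its probe set 1424865_at had the smallest p of the hormone genes. It read 13.72, 14.12 and 14.11 in BPA samples, against 13.57, 13.78 and 13.47 in controls. BPA replicates 2 and 3 were above all controls, and BPA replicate 1 was above control replicates 1 and 3 but below control replicate 2. The means were 13.99 ± 0.23 and 13.60 ± 0.16 (SD, n = 3 per group), a ratio of BPA to control of 1.30 with a 95% interval of 1.04 to 1.63. The difference of 0.38 ± 0.14 (log2, SE) had an unadjusted p of 0.0287 and an adjusted p of 0.734 in limma, so it did not pass. With both replicate 3 arrays left out it was 0.25, and without BPA replicate 1 it was 0.51. Within the controls Pyy and Ppy had different orders: control replicate 3 was the highest for Ppy and the lowest for Pyy.

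**Figure D3:**
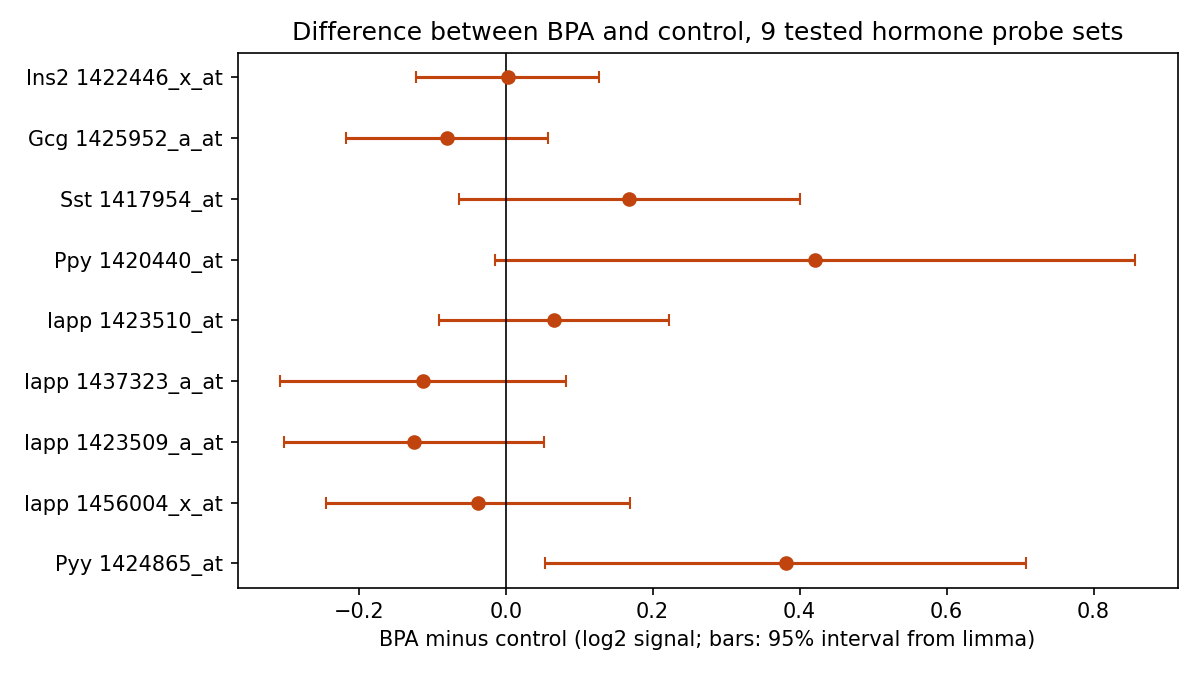
Difference between BPA and control in log2 signal (horizontal axis, BPA minus control) for the 9 tested hormone probe sets (vertical axis); points are limma's estimates and bars their 95% intervals. Of the 9 intervals, that of Pyy alone lies above 0 before any adjustment, and the interval of Ppy, the widest, begins just below 0 and reaches 0.86.

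Ghrl, which encodes ghrelin, was dim: about 55.0% of probe sets other than array controls had a higher mean, and it did not pass the filter at a mean of 6.60. Its probe set 1448980_at read 6.32, 6.48 and 6.32 in BPA samples, against 6.34, 6.06 and 6.20 in controls. BPA replicate 2 was the highest, and the other BPA samples lay just below control replicate 1. The means were 6.37 ± 0.10 and 6.20 ± 0.14 (SD, n = 3 per group; exact permutation p = 0.3), and with no filter on dim probe sets limma gave the difference of 0.17 an adjusted p of 0.867. Whether the signal is above background could not be told from the table, which has no detection calls. Mboat4, the enzyme that puts the acyl chain on ghrelin, was also below the filter, at 6.07 ± 0.22 and 6.25 ± 0.26, as was the ghrelin receptor gene Ghsr, at 4.34 ± 0.19 and 4.98 ± 0.50 (SD, n = 3 per group).

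Set side by side, BPA replicate 1 was the lowest of the 6 arrays for Ins2, Gcg and 3 of the 4 probe sets of Iapp, and the lowest BPA sample for Sst, Ppy and Pyy as well. It also had the highest mean of acinar genes, 1.20, and control replicate 3 had the lowest, -1.59. The mean of the 6 tested hormone genes relative to the 6 arrays was -0.073, 0.15 and 0.17 in BPA replicates 1 to 3. In control replicates 1 to 3 it was -0.077, -0.091 and -0.072. Whether acinar RNA moved the hormone signals was not tested. BPA replicate 2 was the highest array for Sst, Pyy, Ghrl and 2 probe sets of Iapp. Over the 6 arrays, Gcg and Iapp's 1423509_a_at had a Pearson r of 0.967 (exact permutation p = 0.00139, adjusted p = 0.0208 over the 45 pairs of hormone probe sets) and a Spearman rho of 1.0 (exact permutation p = 0.00278, adjusted p = 0.0417). Without BPA replicates 1 and 3, the arrays farthest from the median of Gcg, r was 0.996, and over deviations from the group means it was 0.937. Gcg with Iapp's 1437323_a_at (r = 0.905) and these 2 probe sets of Iapp with each other (r = 0.954) gave the same rho of 1.0 and the same exact permutation p-values. With their 2 farthest arrays left out, r was 0.860 and 0.883. The other pairs did not pass, Sst with Ppy among them (r = 0.852, exact permutation p = 0.0222, adjusted p = 0.200; rho = 0.886, exact permutation p = 0.0333, adjusted p = 0.214), nor did 1423510_at of Iapp with 1423509_a_at of the same gene (r = 0.083, exact permutation p = 0.858; rho = -0.14, exact permutation p = 0.803). The pairs share the 6 arrays, the authors' scaling and the acinar RNA of each sample, so these values describe common movement on these arrays only.

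**Figure D4:**
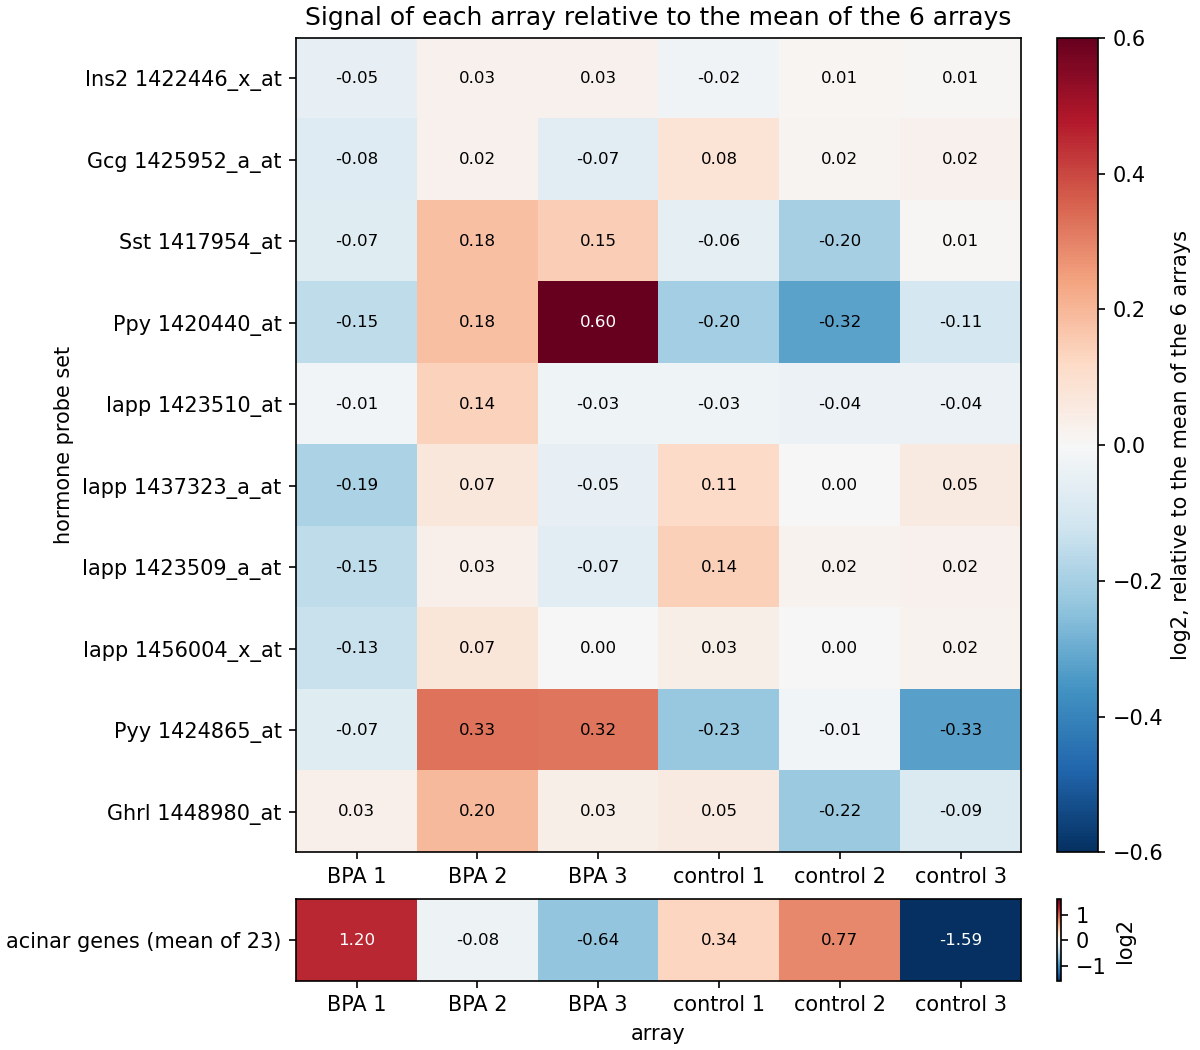
Log2 signal of each array (columns) relative to the mean of the 6 arrays for the 10 hormone probe sets (rows) and, in the lower strip with its own colour scale, the mean of 23 acinar genes. BPA replicate 1 is below the mean for all hormone probe sets except Ghrl. Its acinar mean, 1.20, is the highest, and that of control replicate 3, -1.59, is the lowest. Ppy reaches 0.60 above its mean in BPA replicate 3.

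For each hormone gene the 3 genes with the most similar profile over the 6 arrays were taken from the 11787 genes with a tested probe set, by Pearson r with the gene's brightest probe set. They were Spin1 (0.991), 4930523C07Rik (0.990) and Ccdc14 (0.988) for Ins2, and Zbtb11os1 (0.998), Rit2 (0.996) and Exosc2 (0.993) for Iapp. Those for Gcg were Dyrk2 (0.995), Slc5a2 (0.974) and Trip11 (0.973), and those for Sst were Sh3d21 (0.980), Fam219aos (0.980) and Fxyd6 (0.976). Ppy was closest to Qsox1 (0.996), Vwf (0.984) and 1810055G02Rik (0.984), Pyy to Zfp512b (0.985), Map7d1 (0.977) and Mrpl34 (0.972), and Ghrl to Zfp689 (0.996), Naa35 (0.980) and Col23a1 (0.979). With 6 arrays, 10 to 45 genes had an r above 0.95 with each hormone gene, and no hormone gene was among the 3 closest to another.

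Genes that act with these hormones were read from 4 lists, each gene by its brightest probe set. None of their tested genes passed limma's test, and the 2 with the smallest p per list are named. Of 11 tested genes for other peptide hormones and neuropeptides, 9 were higher on average after BPA (median 0.24 on the log2 scale), with the gastrin-releasing peptide gene Grp at 0.52 ± 0.22 and the enkephalin gene Penk at 0.75 ± 0.41 (SE; limma adjusted p = 0.781 and 0.820). Grp had 7.03 ± 0.35 in BPA samples and 6.50 ± 0.29 in controls (SD, n = 3 per group). Its control mean was below the filter of 6.60, so it was tested only through its BPA samples. The same held for Cartpt, at 6.73 in BPA samples and 6.49 in controls. The count of higher genes in this list includes both and is not support for a higher signal. The mean of its 11 tested genes relative to the 6 arrays was 0.27, 0.15 and -0.036 in BPA replicates 1 to 3. In control replicates 1 to 3 it was -0.0034, 0.018 and -0.41. In each group this is the order of the mean of the acinar genes, and Grp and Penk had it as well. The part of acinar RNA in these values was not tested. Of 12 tested genes for the enzymes and granins that process and pack prohormones, 9 were lower (median -0.100), with secretogranin 3 (Scg3) at -0.12 ± 0.07 and carboxypeptidase E (Cpe) at -0.10 ± 0.07 (SE; limma adjusted p = 0.832 and 0.855). Chga, the chromogranin A gene, stood at 14.92 ± 0.07 in BPA samples and 14.97 ± 0.06 in controls (SD, n = 3 per group), in the same bright range as the hormones.

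Of 9 tested receptor genes 5 were higher (median 0.054), led by the amylin receptor partners Ramp3 at 0.36 ± 0.15 and Ramp2 at 0.27 ± 0.13 (log2, SE; limma adjusted p = 0.759 and 0.796). Ramp1 was among the 4 lower, at -0.077 ± 0.210 (SE, limma adjusted p = 0.960). The calcitonin receptor gene Calcr, in the same list, was below the filter, at 4.04 ± 0.12 in BPA samples and 3.98 ± 0.11 in controls (SD, n = 3 per group). Of the receptors themselves, the glucagon receptor gene Gcgr differed by 0.054 ± 0.229 and the insulin receptor gene Insr by -0.12 ± 0.15, while Npy1r, Npy2r, Npy4r and Npy5r, whose products bind peptide YY and pancreatic polypeptide, were below the filter, at means of 3.42 to 4.98 in BPA samples. Of 13 tested transcription factors of hormone genes 10 were lower (median -0.089). Glis3, a regulator of insulin genes, differed by -0.32 ± 0.18, and Pdx1, which activates Ins2, Iapp and Sst, by -0.21 ± 0.09 (SE; limma adjusted p = 0.829 and 0.781). Pdx1 was lower in all 3 BPA samples on this probe set, while a dimmer one differed by -0.043 ± 0.122. In these 4 lists, of 11, 12, 9 and 13 tested genes, 3 in all had higher and 2 lower signal in BPA without overlap between groups. Over all tested probe sets 7.83% were higher and 4.35% lower in this way, so both counts are close to the share of the whole table. Grp, among the 3 higher, passed the filter only through its BPA samples. Of the 6 tested beta cell markers 4 were lower (median -0.023), with the glucose-6-phosphatase gene G6pc2 at -0.18 ± 0.08 (SE; limma adjusted p = 0.764). The 2 higher ones were Ucn3 at 0.19 ± 0.11 and Nkx6-1 at 0.032 ± 0.107 (SE, limma adjusted p = 0.832 and 0.969). Without overlap between groups, 1 of the 6 was higher (Ucn3) and 2 were lower (G6pc2 and Pdx1). Ucn3 and Pdx1 are already counted in the 4 lists above.

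**Figure D5:**
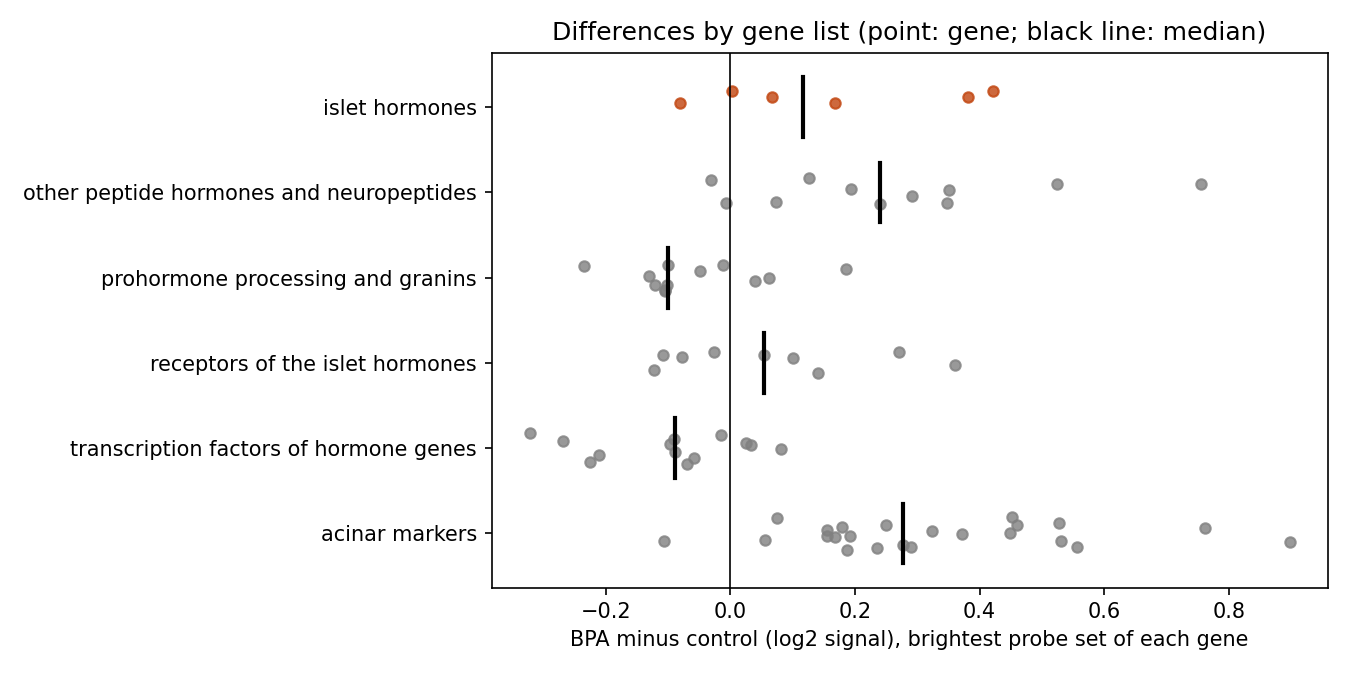
Difference between BPA and control in log2 signal (horizontal axis, BPA minus control) of the tested genes of 6 lists (rows); each point is a gene by its brightest probe set and the black line the median of its list. The hormone genes run from -0.080 (Gcg) to 0.42 (Ppy), and the processing and granin list has 9 of 12 genes below 0.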

How the data were processed

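The authors deposited 1 log2 value per probe set and array. Per the submitters' processing notes, MAS5 was used (no version given); how probes were summarised and scaled is not stated there. Whether the deposited values are MAS5 signals is uncertain: their spread was no wider at low signal (median SD over the arrays 0.13 at means of 4 to 5) than at means of 8 to 9 (0.21), so the spread of bright probe sets is described on a scale of unknown making. The deposited log2 signals were used unchanged, and no detection calls were available. Genes were named from the platform annotation; 64 array controls were left out, and of 45037 other probe sets 34945 had 1 gene, 932 several and 9160 none. Ins2, with the rest of the hormone genes, was matched by symbol.

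Probe sets with a mean above the median of all (6.60) were kept (22518). The difference between the groups was fitted with lmFit and tested with eBayes, trend on, in limma 3.58.1 (R 4.3.3). P-values were two-sided and adjusted by Benjamini-Hochberg over all kept probe sets, with a threshold of 0.05. Tested on simulated data with 22518 probe sets, it recovered 53.1% of those changed by 1 and 86.1% of those changed by 2 (log2). The simulated noise was independent between probe sets, without deviations shared by an array. Both changes are larger than any hormone difference here, of which the largest was 0.42 (Ppy), so recovery at those sizes was not measured. Single values and correlations were tested by exact permutation (scipy 1.17.1). Named genes were all hormone probe sets, the 2 genes of each list with the smallest p, and the 3 genes most like each hormone gene; others were named after their values were seen. The members and lists were chosen with earlier results of these data known. Alternatives covered scaling, filter, variance model, replicate block and left-out arrays. Figures were drawn with matplotlib 3.10.9.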

Additional observations from a re-analysis of the deposited data

How the results depend on the processing

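No hormone probe set and no other probe set passed limma's adjusted test under any of the 14 alternatives fitted to the whole table (quantile normalization, median centring, no filter or a stricter one, robust eBayes or eBayes with no trend, the replicate block, each array left out and both replicate 3 arrays left out); 1458 of all tested probe sets had an unadjusted p under 0.05. The number of hormone probe sets with a higher mean after BPA, 5, was 4 to 6 with each array left out. Ppy stayed higher under all 14, at 0.23 to 0.60 (log2), Pyy at 0.25 to 0.51 and Sst at 0.11 to 0.25; Gcg stayed lower, at -0.11 to -0.058. Ins2 changed sign, at -0.010 to 0.029 with each array left out and -0.0069 with both replicate 3 arrays left out. Quantile normalization set its difference to 0 by construction, since the brightest probe set of each array receives the same value. Of the Iapp probe sets, 1456004_x_at ranged from -0.084 to 0.020 with each array left out, 1437323_a_at from -0.18 to -0.045, 1423509_a_at from -0.17 to -0.080 and 1423510_at from 0.013 to 0.095; 1423510_at turned to -0.052 when the 4 probe sets were averaged, also by construction. Whether the replicate numbers pair the samples could not be told. Deviations from the group means correlated at 0.476, 0.0781 and 0.706 for numbers 1, 2 and 3. BPA replicates 1 and 3 correlated best with the control of the same number, but BPA replicate 2 did so with control replicate 1 (0.397). With the replicate block the count of calls stayed at 0, and the smallest adjusted p of a hormone probe set was 0.260 (Pyy). Ins2, Gcg and the bright Iapp probe sets lie near the top of the range, and whether their signal was compressed there was not tested. Low signal limits what can be read for Ghrl.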
